A study of Mus musculus with 43 samples.

Results

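The transcripts described here are those of 6 myelin genes, Mbp, Mobp, Cnp, Mog, Mag and Cldn11, in RNA from endothelial cells (EC) of the mouse brain. They are the rows of the count table that carry these 6 symbols, and each symbol was found once among 54532 genes. The EC were sorted as CD45-, CD11b- and CD31+ cells from mice aged 2 months, after the tissue had been dissociated and treated with myelin removal beads. The 43 libraries came from the wild-derived strains CAST/EiJ (6 libraries) and WSB/EiJ (6) and from the long-inbred strains 129S1/SvImJ (9), A/J (5), C57BL/6J (6), DBA/2J (5) and NOD/ShiLtJ (6). Cortex gave 21 libraries and hippocampus 22, and 16 libraries were from female and 27 from male mice. Each title holds a tag, high or low, whose meaning is not given in the sources used here. Of the male libraries 14 are titled high and 13 low, while 15 female libraries are titled high and 1 is titled low. Which mouse a library came from is not in the labels. Libraries were taken as independent, and p-values measure the spread between them, which may be partly technical.

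Oligodendrocytes wrap axons in myelin, a stack of compacted membrane sheets, and the mRNAs of Mbp and Mobp are carried out into the myelin-forming processes. Mbp, myelin basic protein, holds the cytoplasmic faces of the sheets together, and Mobp is a further protein of compact myelin. Cnp is an enzyme of the cytoplasmic channels that stay open between the sheets. Mog lies on the outermost sheet, Mag on the innermost sheet that faces the axon, and Cldn11 forms the tight junctions between the sheets. EC are not known to make myelin, and myelin transcripts in sorted vessel cells are commonly read as RNA carried over from oligodendrocytes or myelin debris. Which cells or fragments gave the reads in these libraries was not tested. In bulk RNA, fewer carried-over cells and less RNA per cell cannot be told apart.

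In the mm10 (GRCm38) build with GENCODE release M21, Mbp lies on the plus strand of chromosome 18 from 82475146 to 82585637. Mobp lies on the plus strand of chromosome 9 from 120149707 to 120181484, and Cnp on the plus strand of chromosome 11 from 100574904 to 100591729. Mog lies on the minus strand of chromosome 17 from 37010743 to 37023398. Mag lies on the minus strand of chromosome 7 from 30899176 to 30914873, and Cldn11 on the plus strand of chromosome 3 from 31149920 to 31164324. All 6 are protein coding, and counts were made over their exons, which join to 8.47 kb for Mbp, 6.85 kb for Mobp, 3.64 kb for Cnp, 1.70 kb for Mog, 4.07 kb for Mag and 1.87 kb for Cldn11. Exons of Cnp overlap those of Dnajc7 on the opposite strand over 154 bases, and exons of Mobp overlap those of Gm38642 over 79 bases. Gm38642 held 19 counts in all libraries together. Dnajc7 stood at 64.5 ± 28.9 CPM (SD, n = 43) and Cnp did not follow it across the libraries (Pearson r = -0.12 of log2(CPM + 1), a description). Whether the counting used the strand is not stated, so an exchange of reads between these pairs was not tested.

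Female libraries held 2731954 to 49372356 counts in total and male libraries 1626534 to 10567966. Levels are given as CPM, counts relative to the library total, scaled between libraries by the trimmed mean of M-values (TMM). A gene at 3 counts or fewer is treated as at the floor, since a count of 0 allows a true value of up to 3. That floor lay between 0.0537 and 1.84 CPM depending on the library, and it covers counting error only. Endothelial transcripts were plentiful: over 20 endothelial markers the mean of log2(CPM + 1) was 9.38 ± 0.34 (SD, n = 43), from 8.52 to 9.94. Of the 20 markers 19 were counted in every library. Other cell types were present too. The same mean was 7.09 ± 0.58 over 10 pericyte markers and 6.91 ± 0.71 over 10 astrocyte markers (SD, n = 43). The paper states that the cells were enriched for EC but not pure. Over the 6 myelin genes the same mean was 2.12 ± 0.69 (SD, n = 43), from 0.56 to 3.31.

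Mbp was counted in every library, at 27.3 ± 22.7 CPM (SD, n = 43). Its lowest library, A/J male cortex high, held 1 count (0.176 CPM) and was thus at the floor. The median was 21.9 CPM and the highest library, WSB/EiJ female hippocampus high, stood at 105 CPM. Cnp stood at 23.8 ± 19.0 CPM (SD, n = 43), with a median of 16.5 and a highest library of 75.5 CPM, and was at 0 in 1 library. Mobp stood at 7.83 ± 8.51 CPM (SD, n = 43), with a median of 4.62 and a highest library of 33.8 CPM, and was at 0 in 9 libraries. These 3 genes were thus present in most libraries, with an SD as large as or close to the mean.

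Mog, Mag and Cldn11 were absent from the counts of most libraries. Mog was at 0 in 30 of 43 libraries and over 3 counts in 11, with a highest value of 11.8 CPM in C57BL/6J male hippocampus low. Mag was at 0 in 25 libraries and over 3 counts in 15, and its highest value was 13.5 CPM in a 129S1/SvImJ female cortex high library. Cldn11 was at 0 in 25 libraries and over 3 counts in 13, and reached 18.0 CPM in WSB/EiJ female hippocampus high. Zeros were also found in deep libraries. Mog was at 0 in a library of 47417529 counts, where the floor was 0.0574 CPM, Cldn11 in a library of 49372356 counts and Mobp in a library of 38277327 counts.

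**Figure D1:**
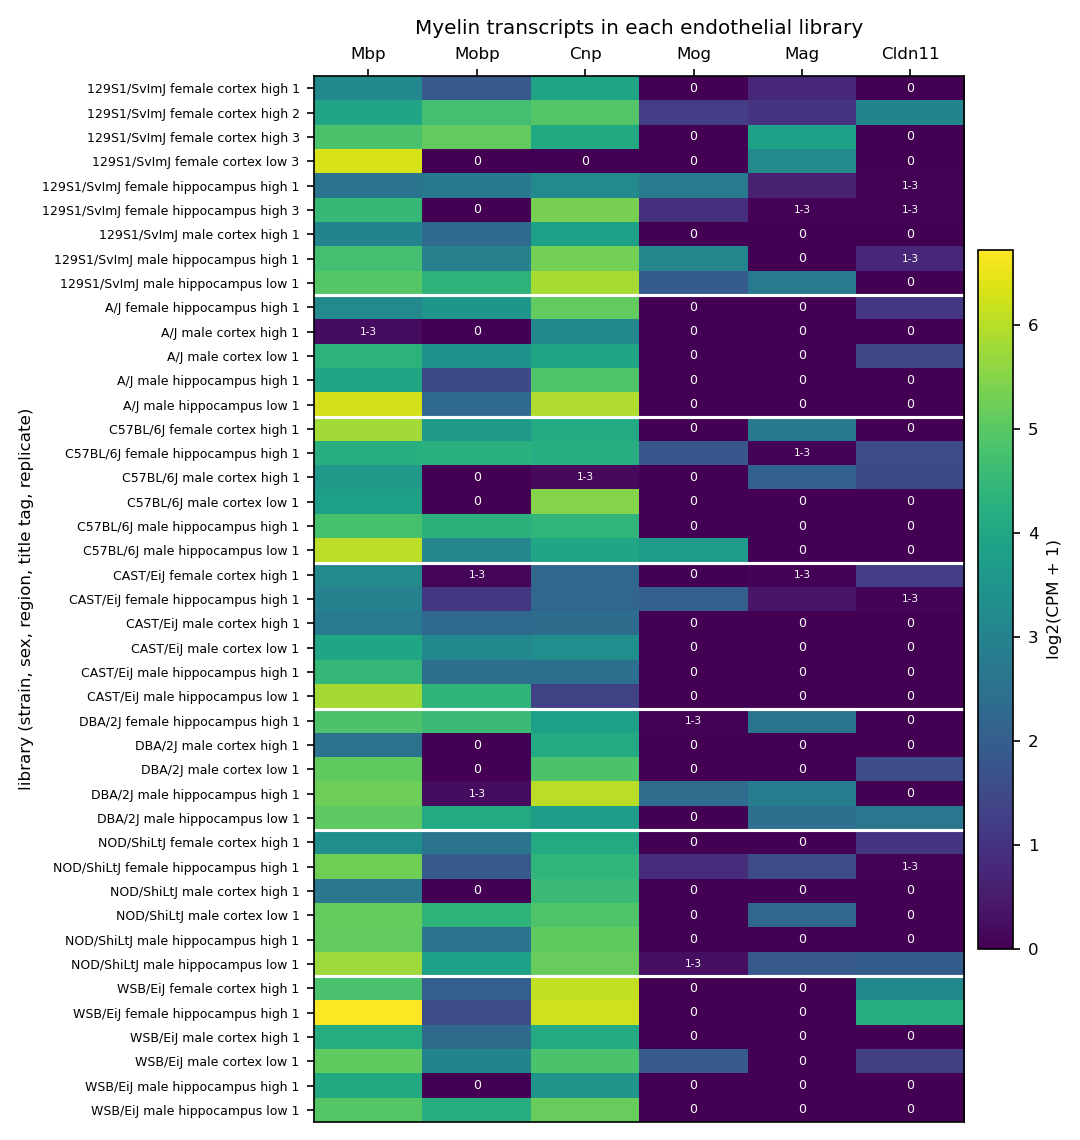
Level of the 6 myelin genes in each of the 43 libraries, 1 row per library grouped by strain and 1 column per gene, coloured by log2(CPM + 1). Cells marked 0 held no count and cells marked 1-3 held 1 to 3 counts: Mbp is never at 0, while Mog is at 0 in 30 libraries and Mag and Cldn11 in 25 each.

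Per kilobase of exon, the mean level was highest for Cnp at 6.53 CPM per kb, followed by Mbp at 3.23, Mobp at 1.14, Cldn11 at 0.678, Mog at 0.602 and Mag at 0.360 CPM per kb. The coefficient of variation over the 43 libraries was 0.80 for Cnp, 0.83 for Mbp and 1.09 for Mobp, against 2.51 for Cldn11, 2.32 for Mog and 1.94 for Mag. Every step between neighbours in this order was smaller than the SD of the higher gene, so no neighbours were separated beyond their spread. Cnp and Mbp were thus the most evenly counted members, and Cldn11, Mog and Mag the most uneven.

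The 6 genes did not rise and fall together from library to library. Over the 15 pairs of members the Pearson r of log2(CPM + 1) had a median of 0.15 and ran from -0.13 for Cnp with Mag to 0.33 for Mbp with Mobp (43 libraries, a description, since the points share library and depth). Over pairs within the astrocyte marker list the median r was 0.49, and over pairs within the neuron list it was 0.36. Within the endothelial list the median was 0.32, with pairs from -0.71 to 0.82. Mog, Mag and Cldn11 were at 0 in 25 to 30 libraries, whereas 9 of the 10 astrocyte markers were never at 0. The part of these zeros in the low r of the members was not tested. All 6 members passed 3 counts in 1 library, a 129S1/SvImJ female cortex high library of 30897300 counts, and 5 of them did so in 8 libraries. Another 15 libraries held 3 members over 3 counts, 13 held 4, 5 held 2 and 1 held 1.

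The ratio of Mbp to Mobp counts shows how unevenly the members appeared. Over the 32 libraries with both genes above 3 counts it had a median of 2.38 and ran from 0.562 to 54. The ratio of Mbp to Cnp had a median of 1.20 over 40 libraries and ran from 0.229 to 37.2. In the 129S1/SvImJ female cortex low library, with 27702669 counts, Mbp stood at 78.4 CPM and Mag at 8.01 CPM while Mobp and Cnp were both at 0. The 3 high-titled 129S1/SvImJ female cortex libraries held 2.70, 25.3 and 33.8 CPM of Mobp, and their Cnp lay between 14.4 and 29.6 CPM.

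Mal, a protein of compact myelin, stood apart from the members: it stood between 105 and 538 CPM in all 43 libraries, or 77.1 CPM per kb, and its r with the mean of the members was -0.07. Mal is also made outside oligodendrocytes, as are several of the listed genes that were high here.

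The other myelin genes were placed in 8 lists by role. In the compact myelin and membrane list the 2 highest were Mal and Mpzl1, at 77.1 and 66.3 CPM per kb, while Opalin, which marks mature oligodendrocytes, was at 0 in 39 of 43 libraries. Among the genes of myelin lipid synthesis Sgms1 stood at 64.5 and Gamt at 4.51 CPM per kb, and the median gene at 0.331. Among the genes of the paranode, cytoskeleton and adhesion Ppp1r14a stood at 13.1 and Tppp at 9.33 CPM per kb, with a median of 0.709 for the list.

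The gap junction gene Gjc3 stood at 0.569 CPM per kb and was at 0 in 28 libraries. In the list of mature oligodendrocyte enzymes, receptors and carriers Car2 stood at 31.4 and Qdpr at 17.2 CPM per kb, while Klk6 had no count in any library. Of the transcription factors of the lineage, Olig1 stood at 3.88 and Sox10 at 1.13 CPM per kb. Olig1 passed 3 counts in 32 libraries, Myrf in 27 and Sox10 in 19, against 15 for Mag and 11 for Mog. Itpr2 at 11.8 and Cspg5 at 8.30 CPM per kb led the list of newly formed oligodendrocytes and precursors. Drp2 at 1.47 and Egr2 at 0.356 CPM per kb led the list of peripheral, Schwann cell myelin.

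**Figure D2:**
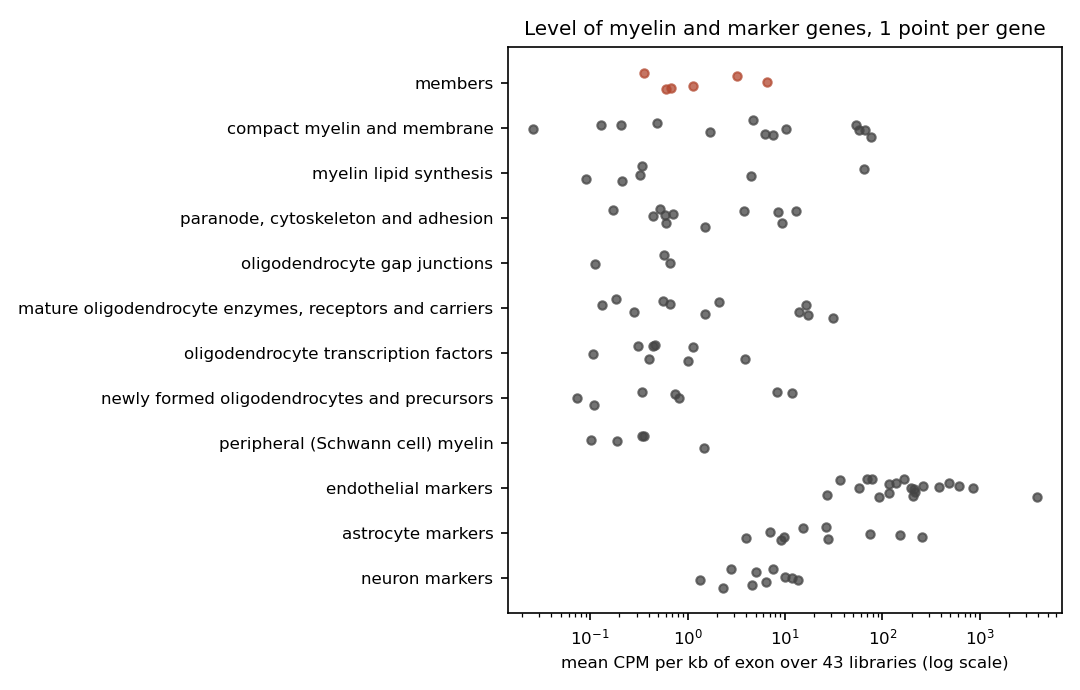
Mean CPM per kb of exon over 43 libraries on a log axis, 1 point per gene, for the 6 members, the 8 lists of other myelin genes and 3 lists of cell type markers. The members lie between 0.360 and 6.53 CPM per kb, below every one of the 20 endothelial markers, and genes with no count in any library are not drawn.

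Within male mice all 6 myelin genes were lower in the libraries titled high than in those titled low, but none passed the test in edgeR's quasi-likelihood fit (Benjamini-Hochberg adjusted over 27529 genes at 0.05). In that fit 1.06% of all genes were called. The median log2 fold change of the 6 members was -1.06 against 0.045 over all genes. An unadjusted p below 0.05 was found for 2 members and for 8.11% of all genes.

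Mbp ran from 0.176 (1 count) over a median of 15.3 to 37.3 CPM in the 14 male libraries titled high. In the 13 titled low it ran from 12.9 over 32.8 to 78.1 CPM. The groups overlapped, with the high-titled libraries lower on average at 16.2 ± 11.3 (SD, n = 14) against 37.8 ± 19.7 CPM (SD, n = 13). The log2 fold change of Mbp was -1.22 (SE 0.38), with an unadjusted p of 0.00197 and an adjusted p of 0.119 in edgeR.

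The call on Mbp turned on the model. With strain and region as covariates the log2 fold change was -1.36 (SE 0.35) and the adjusted p was 0.0199 in edgeR, a fit that called 2.3% of 24452 genes and could not include Mog and Cldn11. DESeq2 without covariates gave -1.22 (SE 0.40) with an adjusted p of 0.0310, calling 2.31% of genes, and gave no adjusted p for Mobp, Mog, Mag and Cldn11. Without the A/J male cortex high library, in which Mbp was lowest, the covariate fit gave -1.18 (SE 0.32) with an adjusted p of 0.0364 in edgeR and called 1.9% of genes. That last alternative was chosen after the values had been seen. Without covariates and without that library the adjusted p was 0.128.

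Mobp was at 0 in 5 of the 14 high-titled male libraries and otherwise ran up to 19.2 CPM, with a median of 2.88. In the 13 low-titled libraries it was at 0 in 2 and otherwise ran up to 19.8 CPM, with a median of 9.88. Its log2 fold change was -1.60 (SE 0.79, adjusted p = 0.602 in edgeR). Cnp ran from 0.131 (1 count) over 16.4 to 64.4 CPM in high-titled and from 1.5 over 27.6 to 60.4 CPM in low-titled libraries. Its log2 fold change was -0.47 (SE 0.42, adjusted p = 0.652 in edgeR). Both genes thus overlapped broadly between the tags.

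The 3 scarce members gave no usable contrast. Mog was over 3 counts in 2 of 14 high-titled and 3 of 13 low-titled male libraries. Mag passed 3 counts in 2 and 4 libraries, and Cldn11 in 1 and 5. Their fitted log2 fold changes were -0.68 (SE 2.20), -0.90 (SE 2.27) and -2.31 (SE 2.54), with intervals from -4.98 to 3.63, from -5.35 to 3.55 and from -7.29 to 2.67.

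Strain and region were matched between the tags in 13 pairs of male libraries, 1 titled high and 1 titled low each. Mbp was lower in the high-titled library in 12 of 13 pairs, the exception being DBA/2J hippocampus at 37.3 against 32.5 CPM. Mobp was lower in 10 and higher in 1, with 2 pairs at 0 in both. Cnp was lower in 10 and higher in 3. Over the 14615 genes with a mean of at least 1 CPM, 2.48% were lower in 12 or more of the 13 pairs and 9.68% in 10 or more. The mean of log2(CPM + 1) over the 6 members was lower in the high-titled library in 13 of 13 pairs, by a median of 0.70. Of single genes 0.78% were lower in all 13 pairs, but such a share was not computed for means of several genes. Mog and Mag were equal in 8 pairs each and Cldn11 in 6, so this mean rests largely on the 3 genes just counted.

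**Figure D3:**
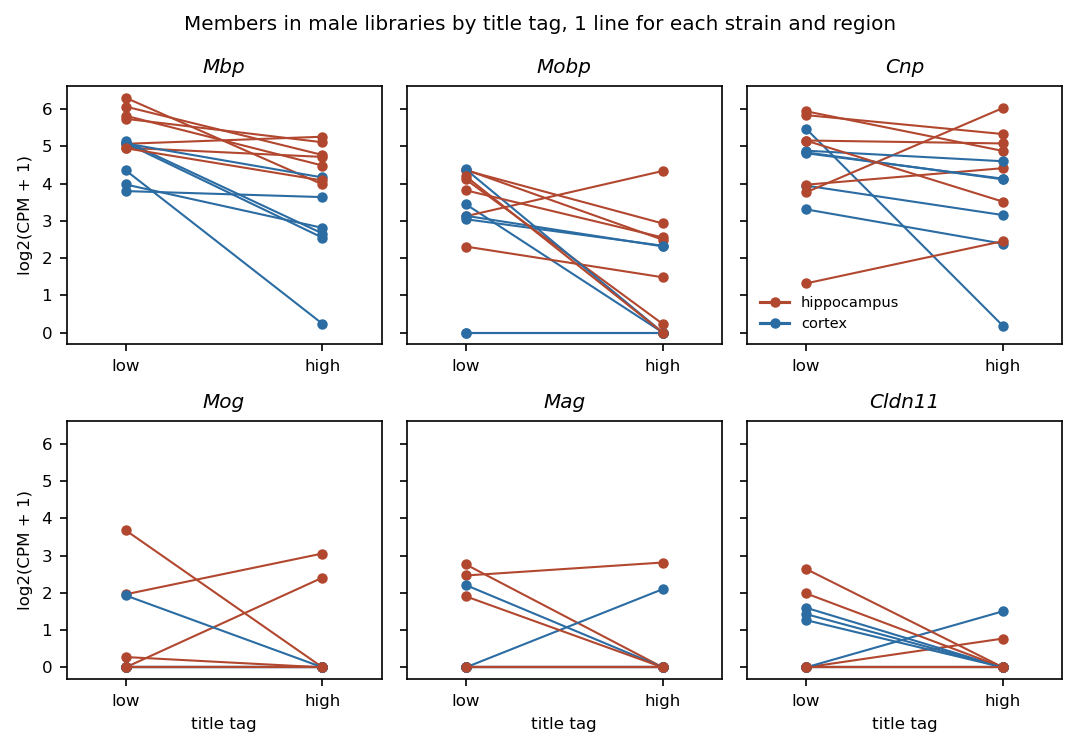
Level of each myelin gene, as log2(CPM + 1), in the low-titled and the high-titled male library of the same strain and region, 1 line for each of 13 strain and region pairs, coloured by region. Mbp falls from low to high in 12 of 13 pairs, while Mog, Mag and Cldn11 are at 0 in both libraries of many pairs.

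Other myelin genes were lower as well. Of 12 tested genes of the compact myelin and membrane list 3 passed the test in the tag comparison and all 3 were lower in high-titled males. Among them Gpm6b was lower by a log2 fold change of -0.998 (SE 0.23, adjusted p = 0.00995 in edgeR) and Plekhb1 by -1.01 (SE 0.28, adjusted p = 0.0490). The call held under 12 of 17 alternatives for Gpm6b and under 9 for Plekhb1. Cspg5, a proteoglycan of precursors that neurons and astrocytes also make, was lower as well (-1.17, SE 0.28, adjusted p = 0.0173) and was the 1 gene called of 7 in its list. Gpm6b, likewise, is made by neurons and astrocytes. In the lists of lipid synthesis, paranode, enzymes, transcription factors, gap junctions and peripheral myelin no gene passed the edgeR test. Of their 43 tested genes 5 had an unadjusted p below 0.05, beside 8.11% of all genes. DESeq2 called 2 of the 43, Sgms1 and Nfasc, beside 2.31% of all genes. It gave no adjusted p for many of the others.

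Markers of other cell types moved with the tag too. Of the 10 neuron markers all had a negative fold change and 2 passed the edgeR test, Nefl and Snap25. Of the 10 astrocyte markers all were negative and 4 passed, among them Aldoc at -1.12 (SE 0.23, adjusted p = 0.00387). The mean of log2(CPM + 1) over the neuron list ran from 2.51 to 5.36 in high-titled and from 3.93 to 5.87 in low-titled male libraries, and was lower in the high-titled library in 13 of 13 pairs. Over the astrocyte list it ran from 5.74 to 7.45 and from 6.95 to 8.53, and was lower in 12 of 13 pairs. Of the 20 endothelial markers 7 passed, 6 of them higher in high-titled libraries, with Cldn5, the tight junction protein of brain EC, at 0.96 (SE 0.15, adjusted p = 7.81e-05). The endothelial list mean was higher in the high-titled library in 12 of 13 pairs. The part of these cell types in the lower Mbp was not tested. Of the microglia list, whose genes Ptprc and Itgam encode the proteins gated out, no gene was called by edgeR or DESeq2, with 0 and 1 gene at an unadjusted p below 0.05, but DESeq2 gave no adjusted p for 9 of the 10. The median log2 fold change of the microglia list was -1.09, with 3 of 10 genes higher in high-titled libraries, and its mean of log2(CPM + 1) was lower in the high-titled library in 10 of 13 pairs.

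The tag difference was not shown to depend on the region. In male cortex Mbp ran from 0.176 to 16.9 CPM in 7 high-titled and from 12.9 to 34.1 CPM in 6 low-titled libraries. In male hippocampus it ran from 14.8 to 37.3 CPM in 7 high-titled and from 29.9 to 78.1 CPM in 7 low-titled libraries. The log2 fold change of Mbp was -1.73 (SE 0.67) in cortex alone and -0.98 (SE 0.36) in hippocampus alone. The difference between the regions was 0.73 (SE 0.68, unadjusted p = 0.283 in edgeR), with an interval from -0.59 to 2.06. No member and no gene passed this interaction test, where 0% of genes were called in edgeR with 563 at an unadjusted p below 0.05, none of them a member. DESeq2 called 38 genes and no member.

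The comparison of the brain regions asks whether EC of hippocampus and cortex carry different amounts of these transcripts. No member passed the test in edgeR, where 0.0755% of 29120 genes were called, and DESeq2 called none. Mbp alone of the members had an unadjusted p below 0.05, as did 5.6% of all genes. Mbp ran from 0.176 over 14.2 to 78.4 CPM in 21 cortex libraries. In 22 hippocampus libraries it ran from 4.996 over 28.9 to 105 CPM. The ranges overlapped almost fully, with a log2 fold change of 0.75 (SE 0.34, unadjusted p = 0.0312, adjusted p = 0.669 in edgeR).

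In males alone Mbp was 1.28 higher in hippocampus on the log2 scale (SE 0.38, adjusted p = 0.480), and in females alone the value was 0.0027 (SE 0.60). The difference between the sexes in this region effect was -1.26 (SE 0.69, unadjusted p = 0.0707 in edgeR) and was not called after adjustment, in a test that called 0.00343% of genes. It called no member, and DESeq2 called none. No member had an unadjusted p below 0.05 in edgeR, beside 3.7% of all genes. Within strain, sex and tag Mbp was higher in hippocampus in 12 of 18 pairs, 10 of 13 in males and 2 of 5 in females. With strain, sex and tag as covariates the log2 fold change was 1.08 (SE 0.32, adjusted p = 0.289 in edgeR). Without the 129S1/SvImJ female cortex low library, an alternative chosen after its values had been seen, it was 0.97 (SE 0.34, adjusted p = 0.669).

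Mog showed its few counts mostly in hippocampus, over 3 counts in 9 of 22 libraries against 2 of 21 in cortex. Its fitted log2 fold change of 3.12 (SE 1.74, adjusted p = 0.669 in edgeR) was not called. Cnp was 0.60 (SE 0.39), Mobp 0.45 (SE 0.64), Cldn11 0.23 (SE 1.45) and Mag -0.47 (SE 1.35) on the log2 scale in hippocampus against cortex. None of the 64 tested genes of the 8 other myelin lists passed in edgeR. Of the 64, 7 had an unadjusted p below 0.05, beside 5.6% of all genes. DESeq2 called 1, Fa2h, an enzyme of myelin lipid synthesis, and called 0.209% of all genes.

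**Figure D4:**
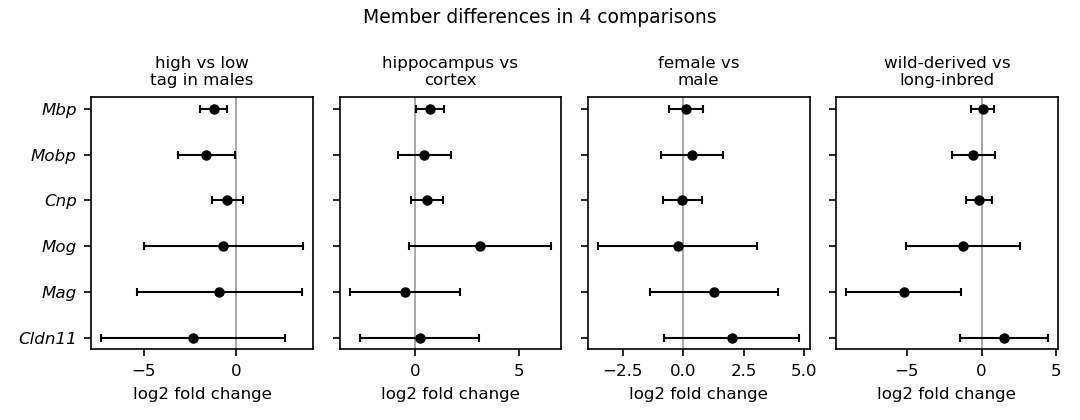
Fitted log2 fold changes of the 6 myelin genes in 4 comparisons, with points for the edgeR estimate and bars for its 95% interval; a value below 0 means lower in the group named first. The 6 points of the tag comparison all lie below 0, and the intervals of Mog, Mag and Cldn11 span several log2 units in every comparison.

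Among the 7 strains no member passed the test in edgeR, where 2.68% of 29120 genes were called, and DESeq2 called none. Cnp and Mag had an unadjusted p below 0.05, as did 10.7% of all genes. Mbp did not separate the strains (adjusted p = 0.911): the strain medians ran from 11.4 CPM in CAST/EiJ over 14.8 in A/J, 21.9 in 129S1/SvImJ, 22.1 in C57BL/6J, 28.4 in WSB/EiJ and 32.5 in DBA/2J to 33.8 in NOD/ShiLtJ, and the range of every strain overlapped that of every other. Mobp gave an adjusted p of 0.989, Mog of 0.820 and Cldn11 of 0.879 in edgeR.

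Cnp had the lowest p of the members among strains. In the 6 CAST/EiJ libraries it ran from 1.5 over 3.96 to 8.90 CPM, at 4.41 ± 2.44 (SD, n = 6). In the 6 WSB/EiJ libraries, the other wild-derived strain, it ran from 10.4 over 30.9 to 75.5 CPM, at 38.7 ± 27.02 (SD, n = 6). These strains did not overlap, nor did CAST/EiJ overlap NOD/ShiLtJ (16.4 to 34.7 CPM) or DBA/2J (12.6 to 64.4 CPM). A/J reached down to 7.90 CPM, and 129S1/SvImJ and C57BL/6J each held a library at or near 0. The test among strains gave an unadjusted p of 0.00798 and an adjusted p of 0.166 in edgeR.

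Taking the wild-derived strains together, no member passed the edgeR test against the long-inbred strains, where 0.749% of genes were called. Mag alone of the 6 had an unadjusted p below 0.05, as did 7.01% of all genes. The median log2 fold change of all genes was -0.38 here, and -0.43 with DESeq2's size factors, beside -0.37 for the members. Since CAST/EiJ and WSB/EiJ stood on opposite sides, Cnp showed a log2 fold change of -0.20 (SE 0.44, adjusted p = 0.876 in edgeR) for both together. With WSB/EiJ left out, CAST/EiJ was 2.51 lower than the long-inbred strains on the log2 scale (SE 0.64), with an adjusted p of 0.0281 in edgeR, where 0.98% of genes were called. With CAST/EiJ left out, WSB/EiJ was 0.66 higher (SE 0.51, adjusted p = 0.802).

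Mag was nearly missing from the wild-derived strains. It was at 0 in all 6 WSB/EiJ libraries and in 4 of 6 CAST/EiJ libraries, and the other two held 1 and 7 counts. In the long-inbred strains it was over 3 counts in 14 of 31 libraries and ran up to 13.5 CPM, but was at 0 in 15, all 5 A/J libraries among them. The fitted log2 fold change was -5.22 (SE 1.959) with an unadjusted p of 0.00828 and an adjusted p of 0.342 in edgeR. DESeq2 called it, at -4.82 (SE 1.35, adjusted p = 0.0209), and called 1.36% of genes. The floor of 3 counts in the WSB/EiJ libraries lay between 0.603 and 1.84 CPM, so that lower levels of Mag could not have been detected there. Cldn11 had its 2 highest libraries in WSB/EiJ, at 18.0 and 7.78 CPM, and a log2 fold change of 1.496 (SE 1.49, adjusted p = 0.754) for wild-derived against long-inbred.

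Of the other myelin genes, Enpp2 and Sgms1 were among those that passed the test among strains in edgeR. DESeq2 called 7 listed genes, in a fit that called 4.58% of all genes. Enpp2, a secreted enzyme that oligodendrocytes and other brain cells make, ran from 141 to 250 CPM in CAST/EiJ and had strain medians from 37.0 CPM in WSB/EiJ to 79.4 CPM in NOD/ShiLtJ elsewhere (adjusted p = 0.00544 in edgeR), although single libraries of DBA/2J and NOD/ShiLtJ reached 243 and 387 CPM. Sgms1, which makes sphingomyelin in many cell types, stood at 980 ± 223 CPM in WSB/EiJ (SD, n = 6) and had means from 512 to 744 CPM in the other strains (adjusted p = 0.0176). The WSB/EiJ female hippocampus high library had the highest Mbp, Cnp and Cldn11 of all, with Mobp at 1.95 CPM and Mog and Mag at 0.

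Female and male libraries were compared next. No member passed the edgeR test, where 2.85% of genes were called, and DESeq2 called none. No member had an unadjusted p below 0.05 in edgeR, beside 13.1% of all genes. Mbp ran from 4.996 over 19.9 to 105 CPM in 16 female and from 0.176 over 25.3 to 78.1 CPM in 27 male libraries, with a log2 fold change of 0.099 (SE 0.35, adjusted p = 0.914). The median over all genes was -0.12, and -0.24 with DESeq2's size factors, with which Mbp stood at -0.027. Cnp was -0.034 (SE 0.40) and Mobp 0.36 (SE 0.65) on the log2 scale. Mog was -0.23 (SE 1.68), Mag 1.25 (SE 1.35) and Cldn11 1.99 (SE 1.43). The tag was uneven between the sexes, with 15 of 16 female and 14 of 27 male libraries titled high. In the 29 libraries titled high alone all 6 members were higher in females. Their median log2 fold change was 1.01 there, against 0.037 over all genes. No member was called in that edgeR fit, which called 1.73% of genes. None had an unadjusted p below 0.05, beside 12.9% of all genes. The sexes also differed in depth and in the share of counts on the rRNA-like genes Gm23935, Gm42418 and Gm26917, which was 1.59% to 12.1% in female and 12.97% to 29.3% in male libraries. These values do not overlap, so sex and this property of the libraries cannot be told apart.

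Mal passed the test between the sexes. It ran from 182 over 279 to 538 CPM in female and from 105 over 171 to 280 CPM in male libraries, with a log2 fold change of 0.73 (SE 0.14, adjusted p = 2.03e-04 in edgeR). The call held under 15 of 18 alternatives, with log2 fold changes from 0.44 to 0.82. With the rRNA-like share as a covariate the log2 fold change was 0.44 (SE 0.28) and was not called (adjusted p = 0.561 in edgeR). Enpp2 was called at 0.87 (SE 0.26, adjusted p = 0.0407), a call that held under 8 of 18 alternatives.

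Among 14615 genes with a mean of at least 1 CPM, the 10 with the highest Pearson r to the mean of log2(CPM + 1) over the 6 members included Eef1a2 (0.69), Tceal3 (0.68), Trim2 (0.67), Map1b (0.67), Cacna1e (0.65), Kmt5a (0.65), Cpne6 (0.63) and Atp2b3 (0.62), each over 43 libraries. Map1b, a microtubule protein, is best known from neurons. Of the listed myelin genes, Tppp was in place 298 at 0.41 and Sox10 in place 1878. These values are descriptions over libraries that differ in strain, sex and depth, and the genes were picked as the highest of all those ranked. By Spearman's rho 9 of the 10 genes stayed on top, within males 5, within females 2 and after taking out strain means 6.

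Taken singly, the members had different nearest genes. Trim2 (0.74) and Ncald (0.65) were among the 3 nearest to Mbp. Tceal3 (0.55), Kcnd2 (0.53) and Bcl11a (0.53) were nearest to Mobp. Tiam1 (0.68), Tmem131 (0.63) and Slc24a3 (0.61) were nearest to Cnp. For the scarce members these were Shq1 (0.57), Hsd3b7 (0.55) and Fabp3 (0.54) for Mog, Pnma3 (0.61), Grip2 (0.58) and Atad3a (0.56) for Mag, and Gm9396 (0.64), Appbp2os (0.61) and Esrrg (0.59) for Cldn11. No gene was on the list of more than 1 member.

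Over 43 libraries the mean of the members had an r of 0.39 with the neuron list and 0.36 with the microglia list. The values were 0.25 for choroid plexus, 0.22 for fibroblasts, 0.18 for astrocytes and 0.05 for pericytes. For smooth muscle r was -0.06 and for the endothelial list -0.26. With the neuron list r was 0.43 over the 27 male libraries, but 0.07 over the 14 titled high and 0.12 over the 13 titled low. It was 0.33 over the 16 female, 0.62 over the 21 cortex and 0.27 over the 22 hippocampus libraries. Within strains of 6 or more libraries it ran from 0.01 in C57BL/6J to 0.90 in CAST/EiJ.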

How the data were processed

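RNA from sorted brain EC was measured in 43 mouse libraries. The authors depleted rRNA, prepared libraries with the SMARTer Stranded Total RNA-seq Pico kit, aligned reads of all strains to mm10 with HISAT2 2.1.0, used SAMtools 1.9 and counted per gene with featureCounts of Subread 1.4.4. They deposited raw counts for 54532 genes, of which 54495 matched GENCODE M21. The effect of a single reference genome on other strains, and the strand setting of the counting, were not tested.

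Scaling used TMM (edgeR 4.0.16 under R 4.3.3). Genes reaching 0.5 CPM somewhere entered edgeR's quasi-likelihood fit (trended dispersion, bias-adjusted deviances). Tests were two-sided, without covariates, with Benjamini-Hochberg adjustment at 0.05. The SE is the fold change divided by the root of its F. DESeq2 1.42.0 was an alternative. In fits with covariates, a gene was dropped if any fitted count was above 5 times its highest observed count. Levels, lists and correlations were computed in Python 3.11.15 on log2(CPM + 1). Programs were tested on simulated data, in which more of the calls were false than the nominal 0.05, most of all among strains, so that calls near the threshold are less certain than their adjusted p. Replicate libraries of 129S1/SvImJ differed beyond counting noise (chi-square per degree of freedom from 292 to 526), so none was counted as a duplicate. In the closing part, each library's gap to its nearest neighbour was set against Dixon's limits within strains.

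Named genes are the 6 members, Mal, from each myelin list the 2 with the highest mean CPM per kb and any that passed a test, the 10 genes most like the members' mean and the 3 nearest to each member. A few others, such as Opalin, Klk6 and Myrf, were named after their values were seen. Some genes that the rule names are not reported here. 1 listed gene had no row. The members, lists and tests were chosen with earlier results of these data known.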

Additional observations from a re-analysis of the deposited data

Results flagged for a closer look

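Each of 39 groups held the values of 1 member in the 4 to 10 libraries of a strain. In them 10 single values stood apart from the rest of their group, by the gap to the nearest value divided by the whole range. The limits are made to mark about 1 in 20 groups of normally distributed values. That rate does not apply to genes at 0 in most libraries. A strain with a single library above 0 is always marked, so the number marked cannot be set against chance. For Mbp this was the DBA/2J male cortex high library at 4.84 CPM, the lowest of 5. For Cnp it was the 129S1/SvImJ female cortex low library at 0 CPM, the lowest of 9, and the C57BL/6J male cortex high library at 0.1315 CPM (1 count), the lowest of 6. For Mog 4 libraries were the highest of their strain: CAST/EiJ female hippocampus at 3.137 CPM, DBA/2J male hippocampus high at 4.313 CPM, NOD/ShiLtJ female hippocampus at 0.8288 CPM and WSB/EiJ male cortex low at 2.815 CPM. For Mag it was CAST/EiJ female hippocampus at 0.3327 CPM, from 7 counts. For Cldn11 these were a 129S1/SvImJ female cortex high library at 7.272 CPM and CAST/EiJ female cortex at 1.349 CPM. The marked highest values rest on 7 to 66 counts, and on 247 for Cldn11 in 129S1/SvImJ. The other libraries of these strains were mostly at 0 for the gene.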

How the results depend on the processing

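Of 555 values of single members under alternatives, 505 kept their direction and their side of the threshold, 9 newly passed it and 41 changed sign. None of these 41 differences was called in the fits reported. Counts of members called moved from 0 as follows. Among strains the older deviances of edgeR called 2, in a fit that called 46.4% of all genes. For wild-derived against long-inbred strains, DESeq2, the older deviances and the fit without WSB/EiJ each called 1. Of all genes these fits called 1.36%, 23% and 0.98%. For the tag in males, DESeq2, the older deviances, the covariates, and the covariates without the A/J male cortex high library each called 1. Of all genes they called 2.31%, 30.2%, 2.3% and 1.9%. No paired analysis was possible because the labels do not name the mouse and the titles of the groups compared share too few replicate numbers, and this concerns pairing by mouse or number alone. Libraries were matched by strain and region instead.

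Genes called over the alternatives ran from 7 to 8023 by region (22 as reported), 184 to 13526 among strains (781), 40 to 6712 by origin (218), 56 to 10473 by sex (830) and 5 to 8327 by tag (293). For the interactions they ran from 0 to 956 for region with sex (1) and from 0 to 38 for tag with region (0). The cause of these spreads was not tested.

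The changed signs were these log2 fold changes. In hippocampus against cortex, Mobp was -0.3518 in females. Mag was 0.1644 in DESeq2, 1.317 in males and 0.5502 without 129S1/SvImJ. Cldn11 was -0.96 in DESeq2, -0.6193 with covariates and -0.4073 without WSB/EiJ. In wild-derived against long-inbred strains, Mbp was -0.03084 with DESeq2's size factors, -0.03082 in DESeq2, -0.3077 in cortex, -0.0032 without A/J and -0.5505 without WSB/EiJ. Cnp was 0.2435 in cortex and 0.6563 without CAST/EiJ, Mog 0.01073 with covariates and 2.232 in cortex, and Cldn11 -1.78 without WSB/EiJ. In females against males, Mbp was -0.02734 with DESeq2's size factors, -0.02612 in DESeq2, -0.7029 with the rRNA-like share, -0.3825 in hippocampus, -0.2279 without WSB/EiJ and -0.08154 without the 129S1/SvImJ female cortex low library. Mobp was -0.2561 in hippocampus. Cnp was 0.1997 in cortex, 0.2636 in libraries titled high, 0.2464 without 129S1/SvImJ, 0.01129 without DBA/2J, 0.02232 without NOD/ShiLtJ and 0.05947 without the 129S1/SvImJ female cortex low library. Mog was 0.3807 with covariates, 0.2093 in libraries titled high and 0.1825 without C57BL/6J. Mag was -1.533 with the rRNA-like share and -0.4187 in hippocampus, and Cldn11 -0.4972 with the rRNA-like share. For the tag, Mog was 0.8208 without C57BL/6J. For the region effect in females minus males, Cldn11 was -0.03637 with DESeq2's size factors, -0.03749 in DESeq2, -0.034 without a filter and -0.03457 with a stricter filter. The cause of the changes was not tested.

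Mog, Mag and Cldn11 held 3 counts or fewer in most libraries, deep ones among them. Over 43 libraries the number of members above 3 counts had a Pearson r of 0.31 and a Spearman's rho of 0.25 with the log10 of the library total (a description). Below the floor of each library, lower levels could not be detected. The fits that leave out the A/J male cortex high library or the 129S1/SvImJ female cortex low library were chosen after seeing the data.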
